A study of Mus musculus with 4 samples.

Results

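Chromatin immunoprecipitation followed by sequencing (ChIP-seq) located the replication timing factor RIF1 in primary mouse splenic B cells, and the peaks described here lie at promoters that 2 protein-coding genes share. A head-to-head pair was defined as 2 protein-coding genes on opposite strands that diverge, with 5′ ends at most 1 kb apart. A peak was a member when it overlapped by at least 1 bp the window of 1 kb on each side of both 5′ ends. Of 16043 peaks in the list, 459 on chromosomes 1 to 19 were members, which was 2.94% of the 15635 autosomal peaks (95% interval 2.68 to 3.21, Wilson method). They lay at 458 of 789 such pairs and touched the promoters of 904 genes.

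The labels place 4 samples in 2 groups, both of C57BL/6 background. Rif1FH cells (2 samples, genotype Rif1FH/FH) carry RIF1 with Flag and hemagglutinin (HA) epitopes at its N terminus, expressed from the endogenous locus, and Rif1WT cells (2 samples, Rif1WT/WT) carry untagged RIF1 and served as the negative control. All cells were activated with lipopolysaccharide (5 µg/ml) and interleukin 4 (5 ng/ml) for 72 h, and chromatin was precipitated through the HA epitope, as the protocol states. The antibody label names a bead reagent against CD43 instead, and positions alone allow no check of the cell type against its markers.

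The deposited list holds chromosome, start and end only, and combines what was called in both Rif1FH samples. It therefore gives no value per sample, the depth is unknown, no replicate error can be attached to a peak, and no level in Rif1WT could be set beside it. Intervals printed with a share cover counting error only, and treat promoters as separate counts although neighbouring promoters share a chromosome region. Besides the peaks, the list holds 289 intervals of 50 kb or more, taken here to be the RIF1-associated domains (RADs) of the study, which are broad regions of enrichment. The study kept as peaks only those clear of RADs, so the lack of a member peak at any pair inside them follows from that definition. Shares are therefore given over all pairs and over the pairs outside RADs.

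Promoters of this kind place the start of 1 gene a short way from the start of another, so that transcription leaves the same stretch of DNA in both directions. They are known to be common among housekeeping genes, DNA repair genes among them, and are typically rich in CpG dinucleotides and poor in TATA boxes. RIF1 is known to set the time at which regions replicate, partly by bringing a phosphatase to replication origins, and in B cells it also protects broken DNA ends during class switch recombination.

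The stretch of DNA between the 5′ ends is what both genes share, and a few stretches are shown as examples of pairs with a peak, pairs without and pairs inside RADs. Each is the plus strand of mouse build mm9 (NCBIM37), from the first base after the 5′ end of the minus strand gene, named first, to the last base before the 5′ end of the plus strand gene. Each stretch lay between the annotated genes and overlapped no other gene. Capitals mark a match, on either strand, to 1 of 8 short motifs that are introduced with their shares further on, and in these stretches the matches were CCAAT, which reads as ATTGG on the other strand, GGGCGG, which reads as CCGCCC there, and GCATGCGC. The first group had a member peak over both 5′ ends.
Ddx5/Ccdc45 (RNA helicase; chr11:106650500-106650565): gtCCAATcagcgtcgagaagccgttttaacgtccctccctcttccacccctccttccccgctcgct
Brix1/Rad1 (ribosome assembly and checkpoint clamp; chr15:10415703-10415772): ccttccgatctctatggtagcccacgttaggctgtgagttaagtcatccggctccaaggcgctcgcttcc
Dnajb4/Fubp1 (co-chaperone and DNA-binding protein; chr3:151873244-151873421): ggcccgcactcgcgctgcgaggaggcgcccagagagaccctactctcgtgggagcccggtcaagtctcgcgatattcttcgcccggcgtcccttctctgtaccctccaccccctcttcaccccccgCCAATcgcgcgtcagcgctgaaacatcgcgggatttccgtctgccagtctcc
Ftsj3/Psmc5 (ribosomal RNA processing and proteasome ATPase; chr11:106117394-106117467): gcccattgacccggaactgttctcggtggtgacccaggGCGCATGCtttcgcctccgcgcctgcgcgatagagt
Mitd1/Mrpl30 (mitochondrial ribosome; chr1:37947257-37947321): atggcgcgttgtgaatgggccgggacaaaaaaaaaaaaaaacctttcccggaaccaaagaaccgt
Lyrm4/Fars2 (mitochondrial phenylalanyl-tRNA synthetase; chr13:36209227-36209279): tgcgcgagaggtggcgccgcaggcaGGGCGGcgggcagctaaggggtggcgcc

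The next group had no peak and lay outside RADs.
Brca1/Nbr1 (homologous recombination and autophagy receptor; chr11:101413270-101413462): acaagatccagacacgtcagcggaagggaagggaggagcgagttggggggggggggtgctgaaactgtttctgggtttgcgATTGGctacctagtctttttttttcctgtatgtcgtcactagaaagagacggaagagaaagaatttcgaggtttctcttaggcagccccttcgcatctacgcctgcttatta
Palb2/Dctn5 (homologous recombination and dynactin; chr7:129276461-129276554): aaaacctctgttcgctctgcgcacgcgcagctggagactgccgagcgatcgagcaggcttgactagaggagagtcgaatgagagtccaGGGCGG
Col4a4/Col4a3 (basement membrane collagens; chr1:82583425-82583495): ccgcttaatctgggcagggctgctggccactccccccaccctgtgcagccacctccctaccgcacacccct

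The last group lay inside RADs.
Rpa1/Smyd4 (single-stranded DNA binding; chr11:75161827-75161934): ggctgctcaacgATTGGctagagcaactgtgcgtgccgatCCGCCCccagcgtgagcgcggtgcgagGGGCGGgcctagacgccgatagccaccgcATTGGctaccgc
Mrps12/Sars2 (mitochondrial ribosome and seryl-tRNA synthetase; chr7:29526840-29527009): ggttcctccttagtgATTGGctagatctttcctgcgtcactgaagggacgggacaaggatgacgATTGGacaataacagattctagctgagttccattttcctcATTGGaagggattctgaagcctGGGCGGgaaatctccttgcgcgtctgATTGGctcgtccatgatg

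The stretches with a peak did not share one composition. Between the 5′ ends of Ddx5/Ccdc45 the GC content was 60.6%, with 1 CCAAT match, whereas Mitd1/Mrpl30 had 46.2% GC and no match to any of the 8 motifs. The ratio of observed to expected CpG (CpG o/e, which is 1 where CpG is as frequent as its C and G content predicts) ran from 0.35 at Serac1/Gtf2h5 to 1.45 at Mitd1/Mrpl30 over the examples with a peak, printed or not. Without a peak it ran from 0.29 at Col4a4/Col4a3 to 1.07 at Palb2/Dctn5, and inside RADs from 0.49 at Wrap53/Trp53 to 1.03 at Rpa1/Smyd4, so the 3 groups of examples overlapped. Inside RADs, Mrps12/Sars2 held 4 matches to CCAAT and 1 to GGGCGG.

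Most bidirectional coding promoters carried a RIF1 peak. A member peak was listed at 58.0% of the 789 pairs (458 pairs, interval 54.6 to 61.4). RADs held 183 pairs, which was 23.2% (20.4 to 26.3), close to the 22.5% of single coding genes (those with no other 5′ end within 1 kb) whose 5′ end lay in one. Outside RADs the share with a member peak was 75.6% (458 of 606 pairs, 72.0 to 78.8), and 148 pairs had none. As background, 32.2% of 21418 autosomal coding genes had a peak within 1 kb of the 5′ end, or 41.8% of those outside RADs. These gene counts include the genes of the pairs, which were 7.29% of all coding genes.

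A pair offers 2 chances to meet a peak, so promoters were also compared in windows of equal length. Windows of 2 kb were centred on the middle of each pair or on the 5′ end of each single coding gene. A peak overlapped 58.2% of the windows at pairs, 49.2% at coding genes that faced a divergent noncoding gene (474 windows) and 28.4% at single coding genes (17772 windows). Pairs thus exceeded single genes by 29.8 percentage points (95% interval of the difference 26.3 to 33.3, Newcombe method). Outside RADs the shares were 75.7%, 64.4% and 36.6%, and the difference between pairs and single genes was 39.1 points (35.5 to 42.5). Pairs were higher on 19 of 19 autosomes. Outside RADs the share per chromosome ran from 61.9 to 90.9% at pairs and from 23.2 to 43.6% at single genes, without overlap.

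Divergent partners that do not code for protein went with a share between the other classes. Outside RADs, pairs of coding genes exceeded coding genes with a noncoding partner by 11.4 points (5.4 to 17.4), and these exceeded single coding genes by 27.8 points (22.6 to 32.6). Both differences were larger than their counting error, before CpG content was taken into account.

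CpG content moved with the class. The median CpG o/e of the 2 kb window was 0.676 at pairs, 0.659 at coding genes with a noncoding partner and 0.404 at single genes. Under 0.4 lay 5.45% of the windows at pairs and 49.6% of those at single genes. The GC content differed less, with medians of 54.5%, 54.6% and 50.5%. When windows were compared within strata of CpG o/e 0.2 wide, and strata were weighted by their number of pairs, the difference between pairs and single genes fell to 8.2 points (4.7 to 11.7), and to 9.7 points (6.3 to 13.2) outside RADs. Most of the raw difference was therefore not seen between promoters of like CpG content.

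Outside RADs, the difference that remained was clearest at intermediate CpG content. At a CpG o/e of 0.4 to 0.6, 78.7% of 122 windows at pairs had a peak against 58.2% of 2767 at single genes, a difference of 20.5 points (12.2 to 27.1). From 0.6 to 0.8 the shares were 77.2% and 70.6%, 6.6 points apart (1.7 to 11.0). At 0.8 and above they were 80.2% and 73.6%, and the interval of the difference (-2.3 to 13.7 points) included 0. In the lowest strata, under 0.2 and from 0.2 to 0.4, the differences were 13.4 points (-0.3 to 53.0) and 14.4 points (-0.4 to 35.8) over 6 and 21 pairs. Over all promoters, RADs included, the difference from 0.4 to 0.6 was 11.1 points (3.6 to 18.4), from 0.6 to 0.8 it was 7.2 points (2.3 to 11.9), and at 0.8 and above 7.8 points (-1.2 to 15.8). Over the same strata, from 0.4 upwards, the share at pairs was 53.0%, 61.6% and 68.0% with RADs included (intervals 45.8 to 60.2, 57.0 to 66.0 and 59.4 to 75.5), each overlapping the next. Coding genes with a noncoding partner stood nearer to pairs. Outside RADs their shares in these strata were 66.7% (55.6 to 76.1), 74.8% (67.7 to 80.9) and 76.4% (65.4 to 84.7). Each interval overlapped that of the pairs in the same stratum. With RADs included, their share from 0.6 to 0.8 was 61.9%, against 61.6% at pairs.

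**Figure D1:**
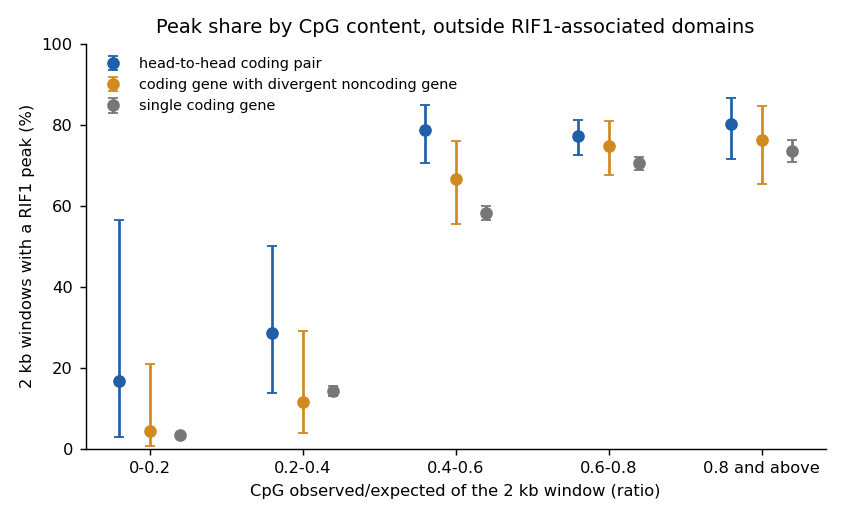
Share of 2 kb promoter windows with a RIF1 peak (y axis, percent) by the CpG observed/expected ratio of the window (x axis) outside RIF1-associated domains, for head-to-head coding pairs (blue), coding genes with a divergent noncoding gene (orange) and single coding genes (grey). Bars are 95% Wilson intervals, and pairs stand highest above single genes from 0.4 to 0.6 (78.7% against 58.2%).

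Pairs of low CpG content were rare. Of 43 pairs with a CpG o/e under 0.4 in the 2 kb window, 7 had a peak (16.3%, 8.12 to 30.0), against 6.47% of 8812 single windows (5.97 to 7.00). Outside RADs these shares were 25.9% of 27 pairs (13.2 to 44.7) and 8.15% of 6995 single windows (7.53 to 8.81), and the intervals did not overlap. The classes differed in CpG content even here. From 0.2 to 0.4 lay 21 of the 27 pairs but 3121 of the 6995 single windows. Within the strata under 0.2 and from 0.2 to 0.4, the intervals of the difference given above included 0. The 7 pairs were Nt5c3l/Klhl10, Pecam1/Gm885, Haghl/Ccdc78, 2010002M12Rik/Ifit1, S100a1/S100a13, Neil1/Gm16493 and Gorasp1/Ttc21a, named after their values were seen. The lowest value, 0.120, belonged to 2010002M12Rik/Ifit1, whose second gene is an interferon-induced antiviral gene. Pecam1, at 0.325, encodes an adhesion molecule of blood and endothelial cells, and Neil1, at 0.385, a DNA glycosylase of base excision repair.

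The share of pairs with a peak did not follow the distance between the 5′ ends beyond counting error. The median distance was 141 bp over all pairs (interval 128 to 152, from order statistics), 133 bp at pairs with a member peak (117 to 149) and 138 bp at pairs without one outside RADs (116 to 178). Outside RADs a peak was listed at 76.2% of pairs with 1 to 50 bp between the 5′ ends, 77.9% with over 50 and up to 100 bp and 74.4% with over 100 and up to 200 bp. The shares were 80.2% with over 200 and up to 300 bp, 67.6% with over 300 and up to 500 bp and 73.6% with over 500 and up to 1000 bp. The intervals of all 6 classes overlapped.

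**Figure D2:**
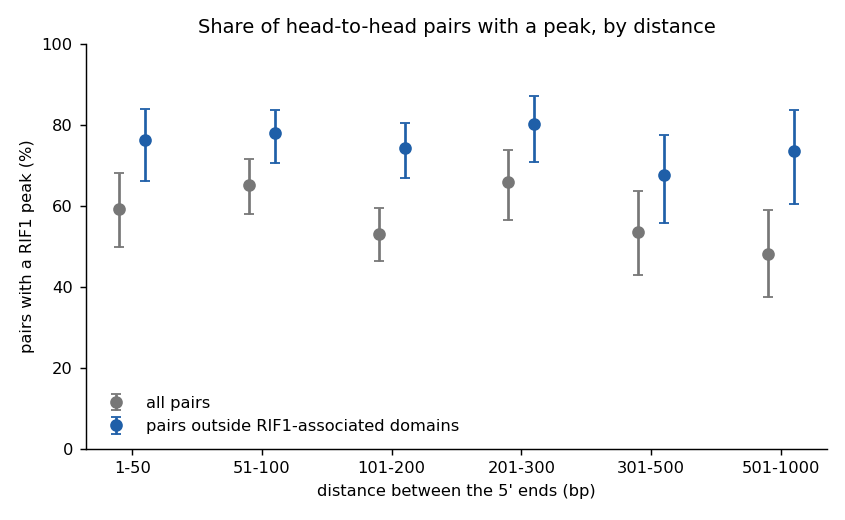
Share of head-to-head pairs with a RIF1 peak (y axis, percent) by the distance between their 5′ ends (x axis, bp), over all pairs (grey) and pairs outside RIF1-associated domains (blue). Bars are 95% Wilson intervals, and outside the domains the shares lie between 67.6 and 80.2% with overlapping intervals.

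Peaks at pairs spanned both starts and were centred near the middle of the pair. Of the 459 member peaks, 403 covered both 5′ ends (87.8%, 84.5 to 90.5), 13 only that of the minus strand gene, 17 only that of the plus strand gene and 26 neither. The rule asked only for overlap with a window 1 kb to each side of both 5′ ends, so that it favoured central peaks without requiring coverage. Coverage of both 5′ ends fell with the distance between them, from 93.8% of 65 peaks at 1 to 50 bp to 59.5% of 42 peaks at over 500 bp. A single pair, Zbtb25/Zbtb1 (2 zinc finger genes of the BTB type, 706 bp apart), had a peak in the window of 1 gene and not in that of the other.

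The midpoint of the peak lay a median of 222 bp from the centre of the pair (194 to 246), and within 250 bp for 54.7% of the peaks. It leaned to neither strand, with a median signed offset of -14 bp (-40 to 24) towards the minus strand gene. It lay between the 5′ ends for 23.5% of the peaks, on the side of the minus strand gene for 39.4% and on the side of the plus strand gene for 37.0%. Of the 351 midpoints that lay past a 5′ end, 67.2% fell in an exon and 32.5% in an intron.

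**Figure D3:**
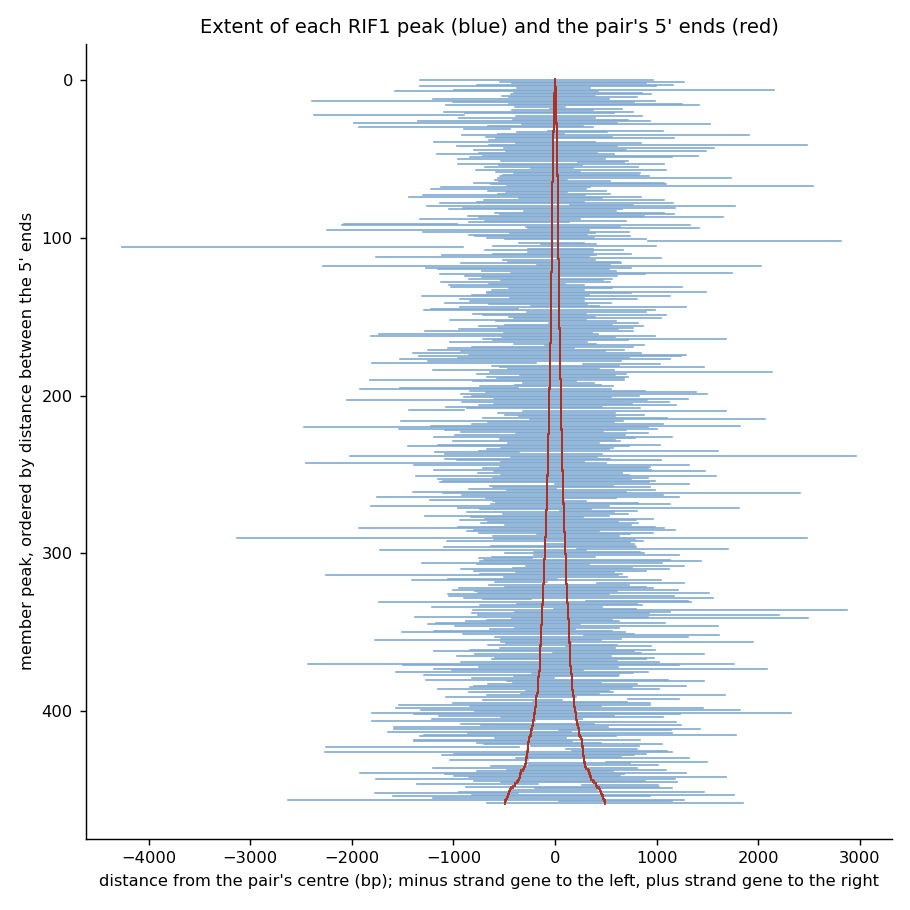
Extent of each of the 459 member peaks (blue lines) around the centre of its pair (x axis, bp), ordered from the shortest to the longest distance between the 5′ ends (y axis), with both 5′ ends in red. Most lines cross both red marks (87.8%), and a few lie to 1 side.

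Single peaks were less balanced than the whole set. The peak reached a median of 660 bp past the 5′ end into the minus strand gene (628 to 705) and 664 bp into the plus strand gene (621 to 710), but within a pair the farther reach exceeded the nearer by a median of 446 bp (389 to 493). The peak reached 250 bp or more into both genes at 74.7% of the member peaks. The longer gene was entered farther than the shorter in 50.5% (46.0 to 55.1), so gene length did not go with the side. The gene with more CpG dinucleotides in its first 500 bp was entered farther in 58.9% of 453 peaks in which both measures differed (54.4 to 63.4). This last measure was chosen after the other values were seen.

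Compared with single promoters, the peak at a pair entered each gene less far. Its reach into a gene had a median of 662 bp over both genes of each member peak (634 to 693), against 872 bp at single coding genes (851 to 891). Upstream of each 5′ end, towards the partner gene, member peaks extended 856 bp (815 to 892) and peaks at single genes 755 bp (736 to 771). At a pair this upstream reach is the reach into the partner gene plus the distance between the 5′ ends. It is therefore not a separate measure of the peak. The whole width was nearly the same, with a median of 1542 bp for member peaks (1461 to 1614) and 1587 bp for the 5109 peaks at single coding promoters (1562 to 1618). Over all 16043 peaks the median width was 1365 bp. The peaks at pairs therefore did not add up to the inward reach of 2 single promoters.

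**Figure D4:**
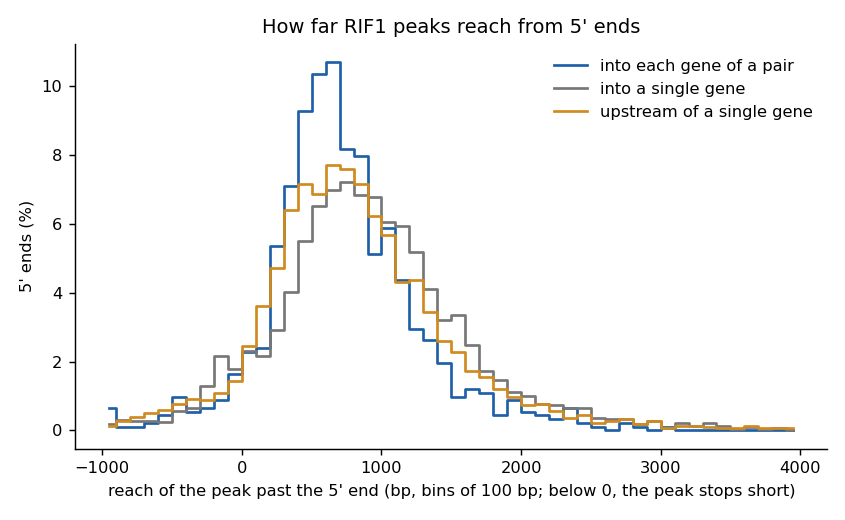
Reach of RIF1 peaks past the 5′ end (x axis, bp, bins of 100 bp up to 4 kb) as a share of 5′ ends (y axis, percent), into each gene of a pair (blue), into single coding genes (grey) and upstream of single coding genes (orange). The blue line peaks at a shorter reach than the grey line (medians 662 and 872 bp).

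Member peaks ranged from 409 bp, at Rps27/Rab13, to 5611 bp, at Gm10655/Tle3, with quartiles of 1127 and 2035 bp. Rps27 encodes a protein of the small ribosomal subunit and Tle3 a Groucho-type corepressor. The next widest were 4983 bp at Litaf/Snn, 4312 bp at Nrg4/AI118078, 4191 bp at Bzw2/Ankmy2 and 4121 bp at Polr3g/Mblac2, and each of these 5 entered both genes by at least 1599 bp. At the narrow end, the peak at Rps27/Rab13 entered Rps27 by 212 bp and Rab13 by 152 bp, and still covered both 5′ ends.

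Some pairs had more than 1 peak, and some peaks served more than 1 pair. At 13 pairs 2 peaks met the rule, among them Wrn/Purg, where peaks of 1193 and 749 bp lay 432 bp apart, and 5033414D02Rik/Cd274, where peaks of 3351 and 644 bp lay 642 bp apart. Wrn encodes a helicase lost in Werner syndrome and Cd274 the immune checkpoint ligand PD-L1. The first peak of 5033414D02Rik/Cd274 had the midpoint farthest from the centre of any pair, 2586 bp towards the minus strand gene. Another 12 peaks served 2 pairs each, in part because the annotation holds 2 gene records of the same symbol, as for Hspa14/Cdnf, and in part because 3 genes meet, as for Mrto4 with C230096C10Rik and Ubr4.

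Base composition of the peaks was higher in GC at pairs. The median GC content was 56.6% in member peaks (56.0 to 56.9), 54.6% in peaks at single coding promoters (54.4 to 54.8) and 50.3% in all autosomal peaks. The CpG o/e was 0.709 (0.695 to 0.725) and 0.637 (0.631 to 0.642) in the first and second class. Between the 5′ ends, over pairs with more than 50 bp there, it was 0.87 at 394 pairs with a member peak (0.85 to 0.90), 0.76 at 287 pairs without one (0.72 to 0.83) and 0.79 at the 128 of these outside RADs (0.72 to 0.88). The intervals of pairs with and without a peak outside RADs overlapped.

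Motif shares in windows of 300 bp differed between bidirectional and single promoters. The motifs were CCAAT (typical of the factor NF-Y), GGGCGG (SP1 family), CCGGAAGT (ETS family), GCATGCGC (NRF1), TGACGTCA (CREB/ATF), CACGTG (E-box), GATGGCGG (YY1) and TATAAA (the core promoter element bound by the TATA-binding protein). Both strands were searched, and no motif contains another. The windows were unlike, centred between both 5′ ends at a pair and on the 5′ end at a single gene. The classes also differed in CpG content, as given above, and motifs were not compared at like CpG content. Over all pairs and all single coding promoters, CCAAT was present in 42.6% and 35.1%, GGGCGG in 66.8% and 42.7%, CCGGAAGT in 13.9% and 3.93%, and GCATGCGC in 6.72% and 2.79%. TATAAA went the other way, with 4.82% of pairs and 11.9% of single promoters. The intervals of these differences excluded 0, as for CCGGAAGT (10.0 points, 7.7 to 12.6) and TATAAA (-7.1 points, -8.5 to -5.3).

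Much of this contrast was smaller among promoters with a RIF1 peak. GGGCGG was present at 69.9% of pairs with a member peak and 67.9% of single promoters with a peak, a difference of 2.0 points (-2.6 to 6.2), and TATAAA at 3.49% and 4.80% (difference -1.3 points, -2.8 to 0.9). In these unlike windows CCAAT stayed higher at pairs, with 41.3% against 34.2% (7.1 points, 2.5 to 11.9), as did CCGGAAGT, with 15.1% against 7.95% (7.1 points, 4.0 to 10.7). GCATGCGC differed by 2.3 points (0.2 to 5.1), while CACGTG was present at 10.5% and 10.4%.

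Among the pairs themselves the motifs did little to separate those with a peak from those without. From 100 bp inside 1 gene to 100 bp inside the other, the interval of the difference included 0 for each of the 8 motifs, as for CCAAT (46.3% with a peak and 51.7% without, difference -5.4 points, -12.4 to 1.7) and GGGCGG (75.5% and 73.1%, 2.4 points, -3.7 to 8.7). In the fixed 300 bp, GGGCGG was more frequent with a peak by 7.3 points (0.7 to 14.0) and TATAAA less frequent (difference -3.2 points, -6.6 to -0.1). These intervals were not adjusted for the 8 motifs. Pairs inside RADs count as pairs without a peak here, and their own shares were 61.2% for GGGCGG and 8.74% for TATAAA. Pairs without a peak outside RADs had 64.2% and 4.05%.

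Pairs were grouped in 12 lists, many of them gathered by gene symbol, so that a list name need not describe the function of each gene. Each share below is of the pairs outside RADs, beside the 75.6% of all such pairs, and the lists hold too few pairs for a narrow interval. Where the annotation holds 2 gene records of the same symbol, the locus counts as 2 pairs that share a peak. The intervals treat such pairs as separate. DNA repair genes took part in pairs most often after histone genes, with 26 of 82 genes (31.7%). Of the 26 repair pairs outside RADs, 18 had a member peak (69.2%, 50.0 to 83.5). They included Lig4/Abhd13 (peak of 3376 bp), whose first gene encodes the ligase of non-homologous end joining, Brix1/Rad1 (2181 bp) and Rad51c/Tex14 (2426 bp), with a recombinase paralogue. Pms1/Ormdl1 and Toe1/Mutyh, with a mismatch repair gene and an adenine glycosylase, had peaks of 1149 and 851 bp. Among the 8 without were Tmem111/Fancd2, Tsc2/Nthl1 and Palb2/Dctn5, and Osgep/Apex1 lay in a RAD.

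Genes of DNA replication and nucleotide supply had a peak at 8 of 10 pairs (80.0%, 49.0 to 94.3). Examples were Orc3/Rars2, with an origin recognition subunit and 1378 bp, Prim2/1700001G17Rik, with the large primase subunit and 1667 bp, and Trmt6/Mcm8, with a helicase and 1048 bp. Vps35/Orc6 and Dbf4/Slc25a40 had no peak, although Orc6 belongs to the same complex as Orc3. Rpa1/Smyd4, Pole3/4933430I17Rik and Abhd12/Gins1 lay in RADs.

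Genes of protein synthesis came in 3 lists. All 9 pairs of mitochondrial ribosome genes outside RADs had a member peak (interval 70.1 to 100%), among them Eme2/Mrps34 (1856 bp), Mrpl50/Zfp189 (1805 bp) and Mitd1/Mrpl30 (642 bp). Another 7 of the 16 pairs of this list, or 43.8%, lay in RADs, against 23.2% of all pairs. Aminoacyl-tRNA synthetases, which load tRNAs with amino acids, had a peak at 5 of 5 pairs (56.6 to 100%), such as Kars/Terf2ip (1231 bp) and Wars/Wdr25 (1249 bp), with 2 more in RADs. The list of cytosolic ribosome genes had a peak at 3 of its 6 pairs (18.8 to 81.2%), namely Rps27/Rab13, Rpl9/Lias (810 bp) and Med22/Rpl7a (1612 bp). It had none at Rnf151/Rps2, Iqcg/Rpl35a and Zwilch/Rpl4. This list did not hold Rpl36al, whose pair Rpl36al/Mgat2 had a peak of 2274 bp, so the count is incomplete.

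Chaperones had a peak at 9 of 11 pairs (81.8%, 52.3 to 94.9), counting Hspa14/Cdnf as 2 pairs. Cct5/Fam173b, with a subunit of the cytosolic chaperonin, had 5 bp between the 5′ ends and a peak of 2322 bp that entered Cct5 by 1326 bp and its partner by 990 bp. Dnajc2/Psmc2 joins a ribosome-bound co-chaperone to a proteasome ATPase, and had a peak of 2826 bp. Hspb2/Cryab, 2 small heat shock genes, had none, and Hspa1a/Hspa1l, 2 genes of the larger heat shock protein family, lay in a RAD. Proteasome genes had a peak at 4 of 5 pairs, with Psma7/Ss18l1 as the exception.

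RNA polymerases and general transcription factors had a peak at 14 of 17 pairs (82.4%, 59.0 to 93.8), counting Rad17/Taf9 as 2 pairs. Among them were subunits of TFIIH (Hps5/Gtf2h1, 1492 bp, and Serac1/Gtf2h5, 827 bp) and TFIIE (Gtf2e1/Rabl3, 1934 bp) and of RNA polymerase II (2610024G14Rik/Polr2b, 1525 bp). The pairs without a peak were Polr1c/Yipf3, Ptcd3/Polr1a and Lnx2/Polr1d, all with a subunit of RNA polymerase I, shared with RNA polymerase III in the case of Polr1c and Polr1d. This list, gathered by symbol, did not hold Znrd1, another gene of an RNA polymerase I subunit. Its pair Znrd1/Znrd1as had a peak of 1756 bp over both 5′ ends, so a lack of peaks was not general to such subunits. Zinc finger genes had a peak at 12 of 14 pairs, counting Ccdc92/Zfp664 as 2 pairs. The list named cyclins and cell division, gathered by the symbols Ccn, Cdk and Cdc, had one at 5 of 5. Its pairs were Ccni/2010109A12Rik, Cdc27/Myl4, Mllt11/Cdc42se1, Cdk5/Slc4a2 and Cdc40/Wasf1, and such a symbol does not by itself place a gene in cell division. The only collagen pair, Col4a4/Col4a3, had no peak.

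Histone genes, which package new DNA in S phase, stood in RADs. All 14 pairs with a replication-dependent histone gene lay in RADs, so none could have a member peak, and in 13 of them both genes were histones, mostly H2A beside H2B, such as Hist1h2ac/Hist1h2bc (251 bp apart) and Hist2h2ac/Hist2h2be (241 bp apart). Many of these genes sit in the same clusters and are therefore not separate observations. Without them, 21.8% of 775 pairs lay in RADs.

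**Figure D5:**
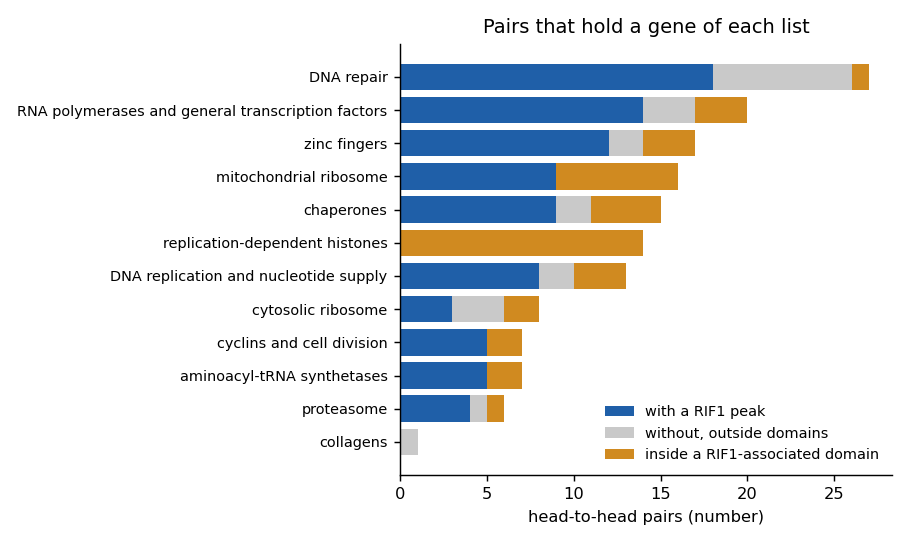
Number of head-to-head pairs (x axis) that hold a gene of each of 12 lists (y axis), with a RIF1 peak (blue), without a peak outside RIF1-associated domains (grey) and inside such a domain (orange). The 14 histone pairs are orange throughout, and the 9 mitochondrial ribosome pairs outside the domains are blue throughout.

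A roster of 66 genes known from classical shared promoters or from the replication and repair machinery brought 14 pairs. A member peak was listed at 6 of them, 5 had none and 3 lay in RADs. Outside RADs this was 6 of 11 pairs (54.5%, 28.0 to 78.7), beside 75.6% of all pairs.

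Atm/Npat (ENSMUSG00000034218.8 and ENSMUSG00000033054.7) joins the kinase that signals double-strand breaks to a coactivator of histone genes, with 307 bp between the 5′ ends. Its peak, chr9:53343435-53345910, was 2476 bp wide and entered Atm by 1410 bp and Npat by 758 bp. It covered both starts and reached farther into its minus strand gene.

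Mcm4/Prkdc joins a subunit of the replicative helicase to the catalytic subunit of the DNA-dependent protein kinase, and Gart/Son a purine synthesis enzyme to a splicing cofactor. The midpoints of their peaks, 2007 and 1886 bp wide, lay between the 5′ ends, 145 bp and 50 bp from the centre. At Ddx5/Ccdc45 the peak of 2098 bp entered Ddx5, an RNA helicase gene, by 1732 bp and its partner by 298 bp. At Hnrnpa2b1/Cbx3, which joins an RNA-binding protein to heterochromatin protein HP1 gamma, the peak of 1808 bp entered Hnrnpa2b1 by 1413 bp and stopped 72 bp short of Cbx3 (reach -72 bp). The shared promoters thus ranged from centred peaks to peaks that lay mostly over 1 gene.

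The 5 roster pairs with no peak outside RADs were Brca1/Nbr1, Palb2/Dctn5, Vps35/Orc6, Tsc2/Nthl1 and Col4a4/Col4a3. The last holds 2 collagens of basement membranes, and the others hold genes of repair, replication, growth control or membrane traffic. Since the list keeps only intervals called in both Rif1FH samples, an absent peak does not show that RIF1 was absent. Wrap53/Trp53, Rpa1/Smyd4 and Mrps12/Sars2 lay in RADs, where RIF1 enrichment was listed over a whole domain rather than at the promoter.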

How the data were processed

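RIF1 ChIP-seq was performed by the authors on activated primary B cells from Rif1FH (2 samples) and Rif1WT (2 samples) mice. As the submitters' processing notes and the study's methods state, reads were trimmed with Trim Galore 0.6.4 and aligned to mm9 with Bowtie 1.0.0, keeping unique alignments, MACS2 2.2.6 called peaks, narrow as well as broad, in each replicate and EDD called RADs, and all were merged with bedtools 2.27.1. Intervals called in both Rif1FH replicates were kept. The deposited list holds positions only. Unique alignment leaves out repeated sequence, and the use of Rif1WT in calling was not stated.

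Intervals under 50 kb were taken as peaks. Gene 5′ ends came from GENCODE M1 and sequence from NCBIM37, the same build. Python 3.11.15 with numpy 2.4.6, scipy 1.17.1 and matplotlib 3.10.9 was used, with coordinates from 1. Pair finding, overlap and intervals were tested on simulated data. No test was run across genes or samples. The pairs and gene lists were chosen with earlier results of these data known. Named pairs were those of the roster, the 5 widest member peaks, peaks serving 2 pairs and, per list, up to 6 pairs with and 3 without a peak by increasing distance. Printed sequences came from roster pairs and, chosen after values were seen, from the first pair with a peak in some lists with 40 to 300 bp between the 5′ ends. The values of 1 roster pair are not reported here.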

Additional observations from a re-analysis of the deposited data

How the results depend on the processing

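Against 459 member peaks, 279 remained when the list was restricted to peaks at or above the median width of 1365 bp, 666 were counted when pairs with overlapping 5′ ends were added, and 594 with the 5′ ends of coding transcripts. The share of pairs with a member peak was 58.0% over all pairs, 75.6% with pairs in RADs left out and 36.0% with the wider peaks. The difference between pairs and single genes, 29.8 points, was 39.1 without promoters in RADs, 17.8 with the wider peaks, 9.0 against coding genes with a noncoding partner and 8.2 within strata of CpG content. With settings added after the data were seen, it was 9.7 within strata outside RADs and 9.2 with automatic gene names also left out. With 5′ ends at most 300 bp apart, 91.4% of member peaks covered both 5′ ends in place of 87.8%, and the midpoint lay between them in 18.9% in place of 23.5%, which follows from the shorter stretch. The causes of the other shifts were not tested. The other 27 of 38 alternative values stayed within their limits, and the sign turned only for the motif GCATGCGC (-0.2 and 1.2 points), for which both intervals included 0. No paired analysis was possible because values per sample are missing from the list used here, and for the same reason leaving out each replicate in turn was not run. The depth behind the list is unknown, so an absent peak cannot be told from one below detection.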

Other observations

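Head-to-head coding genes whose 5′ ends overlap, and which the rule left out, had a peak over both windows at 209 of 410 pairs (interval 46.2 to 55.8%), or at 209 of 284 outside RADs (73.6%, 68.2 to 78.4). The latter share lay within the interval of the pairs described above.

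The X chromosome, also outside the rule, held 19 pairs, of which 8 had a peak over both windows (42.1%, 23.1 to 63.7). Over its 932 coding genes, 24.6% had a peak within 1 kb of the 5′ end (21.9 to 27.4). Pairs with a peak included Pqbp1/Timm17b, Ndufa1/Rnf113a1 (a subunit of respiratory complex I and a ring finger gene) and Mospd2/Fancb (with a Fanconi anaemia gene). Ribc1/Smc1a, with a cohesin subunit, had none. The comparison of the X chromosome with autosomes was not tested.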
